A study of Mus musculus with 12 samples.

Results

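Dbp, Tef and Hlf encode the 3 proline- and acid-rich basic leucine zipper (PAR bZIP) transcription factors, and Nfil3, also called E4bp4, encodes a related bZIP repressor. These 4 genes were taken by their symbols from 22322 gene symbols in the tables, and they held 10 of 46585 transcript rows (3 for Dbp, 4 for Tef, 2 for Hlf and 1 for Nfil3). All 10 rows passed the filter on low values, which asked for an average of 1 RPKM or more in any of the groups. The row with the highest mean was the main row of a gene. RPKM counts reads per kilobase of transcript, scaled to the size of the library. It is a level per length and can be compared between genes.

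RNA was sequenced from 12 livers of mice labelled C57BL/6 and 8 weeks old, with 3 livers in each of 4 groups. Wild-type mice (WT) and mice that lack Bmal1 in the liver (KO) were each sampled at CT0 and at CT12. Bmal1, listed as Arntl, encodes the clock activator BMAL1. Per the study's methods the WT mice were Bmal1 flox/flox, with loxP sites around exon 8, and the KO mice came from crosses of such mice with mice carrying Cre under a liver-specific promoter, so cells in which that promoter is silent keep the gene, and whether WT mice carried Cre is not given in the sources used here. The study's methods name the background C57BL/6J and give males of 8 to 12 weeks. All mice were in darkness for the last 2 days, and CT0 marks the start of the former light phase. The titles number 3 mice a group, which was used here, whereas the labels' treatment text speaks of a pair.

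In the liver clock, CLOCK and BMAL1 bind E boxes and activate genes that include Dbp, whose mRNA swings widely over the day. DBP, TEF and HLF bind D boxes as dimers and activate transcription, and NFIL3 binds the same element and represses it. Nfil3 is itself controlled through ROR elements, at which REV-ERB receptors repress and ROR receptors activate. The D-box output is known above all for genes of xenobiotic and haem metabolism in the liver.

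The sequence below is shown because E boxes are the textbook route from BMAL1 to Dbp. Dbp had no CACGTG within 2000 bases on either side of its annotated start. Its copies lay in intron 2 of Dbp-001, the longest row, at 2624 and 2737 bases from the start, with 1 copy of CACGTT (read as AACGTG on the gene's strand) at 2686 bases between them. The run that holds the 3 motifs spans chr7:52963070-52963212 on the plus strand of NCBIM37 (mm9), and E boxes are in capitals.
Dbp intron 2: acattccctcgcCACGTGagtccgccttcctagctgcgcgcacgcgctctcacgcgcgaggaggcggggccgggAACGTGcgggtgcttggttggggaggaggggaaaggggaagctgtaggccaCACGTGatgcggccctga
Of 7411736 consecutive stretches of the same 143 bases in protein-coding genes and the 2000 bases before them, 1.64% held CACGTG, 0.0374% held 2 or more copies, and 0.0055% held 3 or more E boxes of either kind. The Dbp run was cut around its own E boxes, whereas these stretches follow a fixed grid that can split a run. The shares are per stretch, so they do not show how many genes hold such a run.

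Tef had the most CACGTG copies near a start. The window of 2000 bases on either side of the start of Tef-001 held 2, and that around the start of its main row held 3. Among 22367 windows of that size around protein-coding gene starts, 42.3% held at least 1 copy, 12.9% at least 2 and 3.42% at least 3. The RefSeq table (GRCm38.p6) gives a promoter for each of its 2 starts, and both held CACGTG, as 7.15% of 32851 promoters did. The 250 bases before the downstream start, chr15:81811164-81811413 on the plus strand of GRCm38.p6, hold the E box in capitals and lie between annotated exons in NCBIM37.
Tef downstream promoter: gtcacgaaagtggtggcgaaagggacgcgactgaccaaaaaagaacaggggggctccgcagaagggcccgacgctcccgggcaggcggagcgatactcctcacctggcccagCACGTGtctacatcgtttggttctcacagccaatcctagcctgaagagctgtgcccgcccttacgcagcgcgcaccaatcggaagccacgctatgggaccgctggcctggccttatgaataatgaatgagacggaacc

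Hlf and Nfil3 each had 1 CACGTG within 2000 bases of the start. Nfil3 had 2 copies of the D box TTATGTAA there, in intron 1, a count that 1.7% of windows reached, and Tef also had 2. Neither Dbp nor Hlf had a D box in this window, and TTACGTAA was in none of the 4. AGGTCA, the core of the ROR element, was found in every window, as in 90.0% of all windows. In RefSeq promoters AGGTCA was held by Nfil3 alone among the 4 genes (16.3% of promoters), and CACGTT (4.68%), TTATGTAA (0.938%) and TTACGTAA (0.119%) by none of them. The sites of Hlf and Nfil3 are shown in 30 bases each, on the gene's strand, in NCBIM37, with the motif in capitals.
Hlf E box, intron 1, chr11:90250940-90250969: gctgagcaggctCACGTGtaaccgcgtgca
Nfil3 E box, upstream, chr13:53077091-53077120: ccgccacctctcCACGTGgtcggggacaca
Nfil3 D box, intron 1, chr13:53076063-53076092: cggggcatgcaTTACATAAacttttgctgc
Nfil3 D box, intron 1, chr13:53075147-53075176: gaaatgtgaggTTATGTAActgccgaattt
Nfil3 ROR core, exon 1, chr13:53076403-53076432: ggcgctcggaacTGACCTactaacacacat
Such matches are descriptions of letters, not of binding. Both strands were searched, and TTACATAA and TGACCT are TTATGTAA and AGGTCA read on the other strand.

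The libraries held 11463307 to 19019056 reads, as recovered from the steps of the RPKM values, and replicates correlated across genes with r between 0.9901 and 0.9948. Hepatocyte markers were the highest of the 8 marker lists in every group, and all 6 averaged above 1 RPKM. Their summed level was 38900 to 51900 RPKM in WT and 27800 to 36200 in KO, without overlap. Alb made up a large part of this sum, with means of 36060 and 30910 RPKM in WT at CT0 and CT12 and 19010 and 14870 in KO. The list was not summed without Alb, so the gap is not shown for the other hepatocyte markers. The 2 neutrophil markers summed to 26.1 to 90.5 RPKM in WT at CT0, 4.57 to 6.98 in WT at CT12, 84.2 to 178 in KO at CT0 and 15.5 to 36.1 in KO at CT12, so that they were lower at CT12 in both genotypes. The other lists are given in the order WT at CT0, WT at CT12, KO at CT0 and KO at CT12. The 5 endothelial markers summed to 78.8 to 97.4, 52.7 to 62.8, 90.3 to 103 and 44.0 to 103 RPKM, and the 5 stellate and fibroblast markers to 118 to 158, 88.1 to 102, 145 to 177 and 112 to 143 RPKM. The 6 Kupffer cell and macrophage markers in the tables, of 7 listed, summed to 140 to 186, 87.6 to 134, 125 to 189 and 94.6 to 166 RPKM, and the 2 erythroid markers to 83.2 to 231, 46.1 to 108, 130 to 134 and 145 to 185 RPKM. In WT the endothelial, stellate, Kupffer cell, lymphocyte and cholangiocyte lists were lower at CT12 without overlap. In KO the stellate and lymphocyte lists were lower and the erythroid list higher at CT12, also without overlap. At CT12 the erythroid, stellate and neutrophil lists were higher in KO than in WT without overlap. The 4 lymphocyte markers summed to 3.52 to 6.52 RPKM and the 4 cholangiocyte markers to 0.708 to 5.68 RPKM over all livers, and no marker was at 0 in every liver. The part of these shifts in the values of the 4 genes was not tested. In these bulk samples, fewer cells of a type and less RNA per cell cannot be told apart. Arntl itself averaged 15.92 ± 0.37 RPKM in WT at CT0, 1.049 ± 0.32 in WT at CT12, 6.365 ± 0.944 in KO at CT0 and 3.989 ± 0.391 in KO at CT12 (SD, n = 3). A level over the whole transcript does not show whether exon 8 was removed, so this is no check of the genotype labels.

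**Figure D1:**
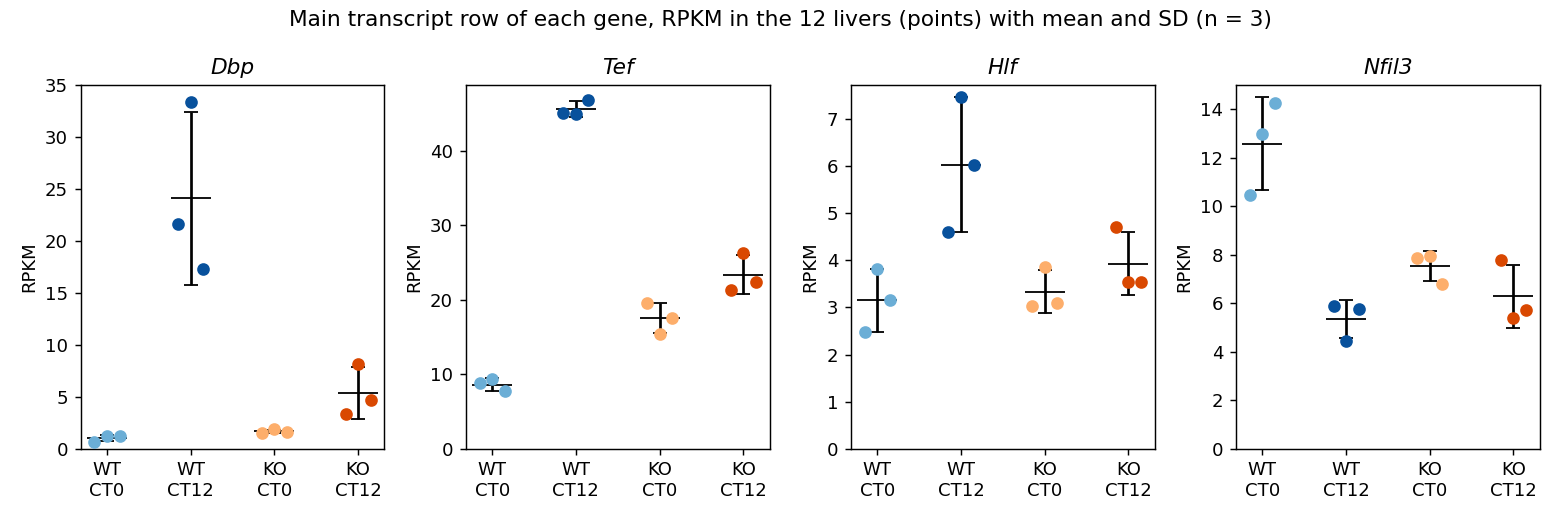
RPKM of the main transcript row (vertical axes, from 0) in the 12 livers, by genotype and circadian time, with points for single livers and bars for mean ± SD (n = 3). Dbp and Tef are highest in the 3 WT livers at CT12, while Nfil3 is highest in the 3 WT livers at CT0.

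Dbp encodes the D-box activator with the widest daily swing of the family. In WT at CT0 its main row stood at 0.661, 1.25 and 1.18 RPKM, and in WT at CT12 at 21.7, 33.4 and 17.3 RPKM. In KO it stood at 1.51, 1.84 and 1.63 RPKM at CT0 and at 3.29, 8.11 and 4.66 RPKM at CT12. All 3 WT livers at CT12 were above every other liver, and no 2 of the 4 groups overlapped. The group means were 1.03 ± 0.321, 24.13 ± 8.33, 1.661 ± 0.168 and 5.353 ± 2.48 RPKM in the same order (SD, n = 3). Mean Dbp was thus 23.4-fold higher at CT12 than at CT0 in WT and 3.22-fold higher in KO, and at CT12 it was 4.51-fold lower in KO than in WT.

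Tested on log2(RPKM + 1), which understates the change of low genes, Dbp rose between CT0 and CT12 in WT by 3.59 (SE 0.27, 95% interval 3.01 to 4.17, adjusted p = 7.3e-06). This was the 3rd largest difference by size among the 10799 genes tested, of which 11.6% were called. In KO the time difference was 1.19 (SE 0.27, interval 0.61 to 1.77, adjusted p = 0.042), in a comparison that called 2.43% of genes. That call was lost in 9 of 19 alternative fits, 8 of them fits without 1 library, and without the second KO liver at CT12, the highest of its group, the difference was 0.89. At CT12 Dbp was lower in KO than in WT, with a difference of -2.0 (interval -2.59 to -1.42, adjusted p = 0.00049), where 10.5% of genes were called. At CT0 the difference was 0.40 (interval -0.18 to 0.98, adjusted p = 0.55), although the 3 KO livers lay above the 3 WT livers, and 1.86% of genes were called there. The interaction of genotype and time, that is the KO time difference minus the WT one, was -2.41 (SE 0.38, interval -3.23 to -1.58, adjusted p = 0.0078). It ranked 14th by size, and 1.49% of genes were called.

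The 3 Dbp rows are nested. Dbp-004, the main row, has 801 bases in 3 exons, all of them within Dbp-002 (912 bases), which lies within Dbp-001 (1789 bases, chr7:52960458-52965525, plus strand, NCBIM37). They share most reads and are no replicates of each other. The main row rested on 10 to 393 reads a library. The last exon of Dbp also overlaps the final exon of Sphk2, a sphingosine kinase gene on the opposite strand, over 450 of the 801 bases, and Sphk2 is named here after its values were seen. Sphk2-001, the Sphk2 row with that overlap, had 276, 492 and 312 reads in WT at CT0 and 244, 157 and 250 in WT at CT12, so it did not follow Dbp. In all 12 libraries it was within -29 to 7 reads of Sphk2-002, which shares no base with Dbp, but how reads over both genes were counted is not given in the sources used here.

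A stretch nearly free of Sphk2 gave the same order of groups. The 877 bases of Dbp-001 outside Dbp-002, of which 41 lie in Sphk2 exons, held 3, 0 and 2 further reads in WT at CT0 and 69, 96 and 64 in WT at CT12. In KO they held 6, 8 and 5 further reads at CT0 and 10, 15 and 9 at CT12. In RPM, which is scaled to library size without the length, these were 0.0923 ± 0.0825, 5.2 ± 1.19, 0.467 ± 0.0839 and 0.827 ± 0.263 (SD, n = 3) in WT at CT0, WT at CT12, KO at CT0 and KO at CT12, and the WT livers at CT12 stood above all others.

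Tef encodes the thyrotroph embryonic factor, the D-box activator with the highest level of the 3 in these livers. Its main row stood at 8.76, 9.37 and 7.69 RPKM in WT at CT0 and at 45.1, 44.97 and 46.9 RPKM in WT at CT12. In KO it stood at 19.6, 15.5 and 17.6 RPKM at CT0 and at 21.4, 26.3 and 22.4 RPKM at CT12. No 2 groups overlapped, and both KO groups lay between the 2 WT groups. The means were 8.608 ± 0.85, 45.65 ± 1.08, 17.52 ± 2.05 and 23.35 ± 2.59 RPKM (SD, n = 3). Mean Tef was 5.3-fold higher at CT12 than at CT0 in WT and 1.33-fold higher in KO. It was 2.04-fold higher in KO than in WT at CT0 and 1.96-fold lower at CT12.

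Both genotype differences of Tef passed the test, in opposite directions: 0.94 at CT0 (SE 0.11, interval 0.71 to 1.18, adjusted p = 0.00094) and -0.94 at CT12 (interval -1.18 to -0.71, adjusted p = 0.00015). Tef rose over time in WT by 2.28 (interval 2.05 to 2.52, adjusted p = 2.2e-07). In KO the time difference was 0.40 (interval 0.16 to 0.63, adjusted p = 0.079) and missed the threshold. The interaction was -1.89 (SE 0.15, interval -2.22 to -1.56, adjusted p = 0.00013), 29th by size of all genes tested, as was the WT time difference.

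The main row of Tef, Tef-008, is a short model of 477 bases, and the longest row, Tef-001 (4401 bases, chr15:81632851-81657291, plus strand, NCBIM37), rested on 378 to 2164 reads a library, against 62 to 347 for the main row. In Tef-001 the livers of a group lay close together, and why was not tested. Tef-001 was at 5.15, 5.15 and 5.08 RPKM in WT at CT0 and at 30.5, 30.1 and 30.2 RPKM in WT at CT12. In KO it was at 11.7, 12.4 and 12.3 RPKM at CT0 and at 15.3, 16.7 and 17.1 RPKM at CT12. In this row the KO time difference of 0.40 passed the test (SE 0.07, adjusted p = 0.019), as it did for Tef-006, so the call for Tef in KO turned on which row was read. Tef-001 and Tef-006 begin at different first exons but share 3772 bases, so these values do not tell their starts apart, and 193 bases of Tef-001 lie under an exon of Gm17597 on the other strand.

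Hlf encodes the hepatic leukaemia factor, the third D-box activator. Its main row stood at 2.48, 3.82 and 3.16 RPKM in WT at CT0 and at 4.61, 7.48 and 6.02 RPKM in WT at CT12. In KO it stood at 3.04, 3.86 and 3.10 RPKM at CT0 and at 4.71, 3.54 and 3.55 RPKM at CT12. The WT groups did not overlap, while the KO groups overlapped with each other. Hlf rose over time in WT by 0.75 (interval 0.38 to 1.12, adjusted p = 0.015), from 3.152 ± 0.672 to 6.037 ± 1.44 RPKM, a ratio of means of 1.92. In KO the difference was 0.18 (interval -0.18 to 0.55, adjusted p = 0.59). Against WT, KO differed by 0.07 at CT0 (interval -0.30 to 0.44, adjusted p = 0.9) and by -0.50 at CT12 (interval -0.87 to -0.13, adjusted p = 0.084), and the interaction was -0.57 (interval -1.09 to -0.05, adjusted p = 0.35). None of these 4 differences of Hlf passed.

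The main row of Hlf is absent from the annotation used here. The shortest length that turns its RPKM into whole reads in all 12 libraries, within 0.01 read, was 619 bases, which gives 22 to 68 reads a library. Hlf-001 (5642 bases, chr11:90197850-90252209, minus strand, NCBIM37) rested on 163 to 524 reads. It stood at 1.97, 2.33 and 2.66 RPKM in WT at CT0 and at 4.10, 6.32 and 5.59 RPKM in WT at CT12. In KO it stood at 2.60, 2.61 and 2.52 RPKM at CT0 and at 3.93, 3.61 and 3.45 RPKM at CT12. In this row the 3 KO livers at CT12 lay above the 3 at CT0 and below the 3 WT livers at CT12, without overlap. The differences were 0.38 over time in KO (interval 0.10 to 0.67, adjusted p = 0.14) and -0.43 between genotypes at CT12 (interval -0.71 to -0.14, adjusted p = 0.059), and neither passed.

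Nfil3 encodes the repressor that competes for D boxes, and it ran opposite to the 3 activators. Its only row (Nfil3-001, 2026 bases in 2 exons, chr13:53062578-53076442, minus strand, NCBIM37, 132 to 500 reads) stood at 10.5, 12.98 and 14.3 RPKM in WT at CT0 and at 5.88, 4.44 and 5.74 RPKM in WT at CT12. In KO it stood at 7.85, 7.94 and 6.80 RPKM at CT0 and at 7.77, 5.37 and 5.71 RPKM at CT12. The 3 WT livers at CT0 were above all 9 others. Nfil3 fell over time in WT, with a difference of -1.09 (interval -1.42 to -0.77, adjusted p = 0.00071), from 12.57 ± 1.92 to 5.351 ± 0.795 RPKM, 2.35-fold. In KO the time difference was -0.24 (interval -0.56 to 0.08, adjusted p = 0.4), from 7.53 ± 0.631 to 6.282 ± 1.3 RPKM.

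At CT0 Nfil3 was 1.67-fold lower in KO than in WT, with a difference of -0.66 (interval -0.99 to -0.34, adjusted p = 0.047) that lay near the threshold and missed it in 13 of 19 alternative fits. At CT12 the genotypes differed by 0.19 (interval -0.13 to 0.52, adjusted p = 0.48). The interaction was 0.85 (SE 0.21, interval 0.39 to 1.31, adjusted p = 0.077), so a difference of the time effect between genotypes was not called for Nfil3.

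**Figure D2:**
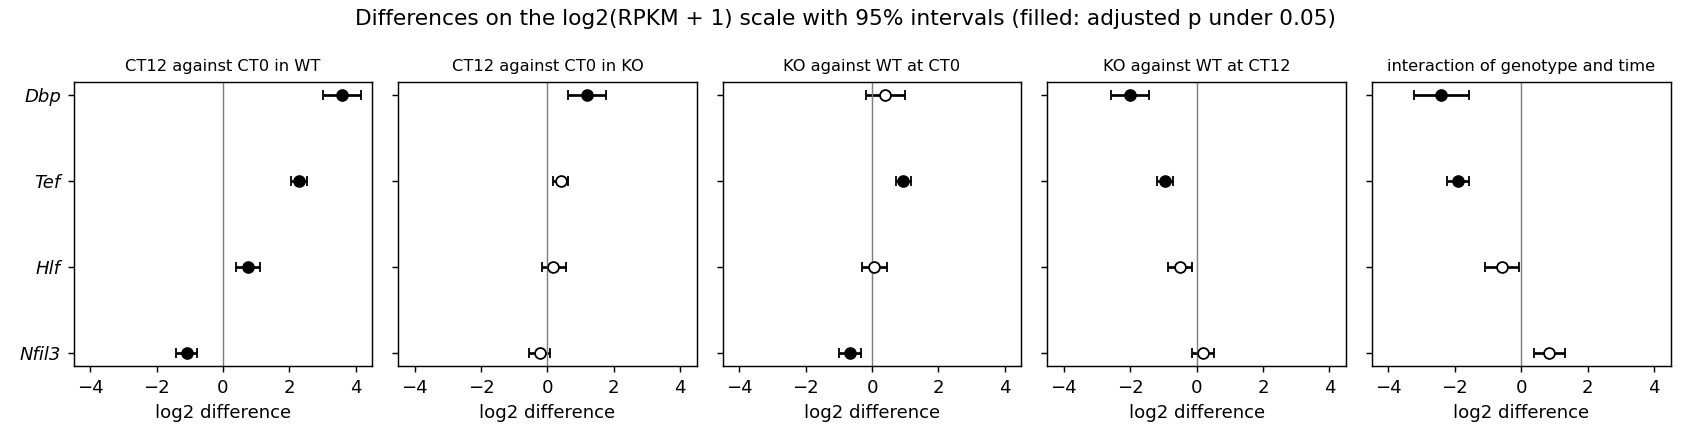
Differences on the log2(RPKM + 1) scale (horizontal axes) with 95% intervals in the 5 comparisons, filled where the adjusted p was under 0.05. The 3 activators lie right of 0 and Nfil3 left of 0 in WT over time, and only Dbp and Tef have a filled interaction.

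Set side by side, the order of levels was WT at CT12, KO at CT12, KO at CT0 and WT at CT0 for Dbp, Tef and Hlf, and the reverse for Nfil3. Some neighbours in that order missed the adjusted threshold. For Dbp these were KO at CT0 and WT at CT0, and for Tef the KO groups at CT12 and CT0, although in both cases the livers did not overlap. For Hlf all neighbours missed it and overlapped in the main row, while in Hlf-001 only KO and WT at CT0 overlapped. For Nfil3 KO at CT0 and KO at CT12, and KO at CT12 and WT at CT12, missed it and overlapped. The remaining pairs crossed genotype and time. KO at CT0 against WT at CT12 differed by -3.19 for Dbp (adjusted p = 8.7e-06), -1.34 for Tef (adjusted p = 6.8e-06), -0.68 for Hlf (adjusted p = 0.014) and 0.43 for Nfil3 (adjusted p = 0.06), where 20.8% of genes were called. KO at CT12 against WT at CT0 differed by 1.59 for Dbp (adjusted p = 0.0076), 1.34 for Tef (adjusted p = 7.8e-05), 0.25 for Hlf (adjusted p = 0.4) and -0.90 for Nfil3 (adjusted p = 0.0069), where 5.94% were called. In Hlf-001 the latter difference was 0.49 and passed in the limma fit of all rows (adjusted p = 0.045), so this call for Hlf turned on the row. These comparisons share samples with those above. The KO time difference was 33% of the WT one for Dbp, 17% for Tef, 24% for Hlf and 22% for Nfil3 on the log2(RPKM + 1) scale. These shares are from the main rows, and their order changed with the row. In the longest rows the time differences in KO and WT were 0.92 and 3.29 for Dbp, 0.40 and 2.35 for Tef, and 0.38 and 0.92 for Hlf.

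Across all 10 transcript rows, fitted together with 26512 rows in all, the direction within a gene was the same in each of the 5 comparisons. In WT all 10 rows passed over time (12.4% of all rows were called), and in KO the 3 Dbp rows and 2 Tef rows did (2.79%). At CT12 the 3 Dbp and 4 Tef rows were lower in KO (10.6%), and at CT0 the 4 Tef rows were higher and the Nfil3 row lower in KO (1.72%). The interaction passed for the 3 Dbp and 4 Tef rows (1.61%), between -2.41 and -2.37 for Dbp and between -1.95 and -1.71 for Tef.

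**Figure D3:**
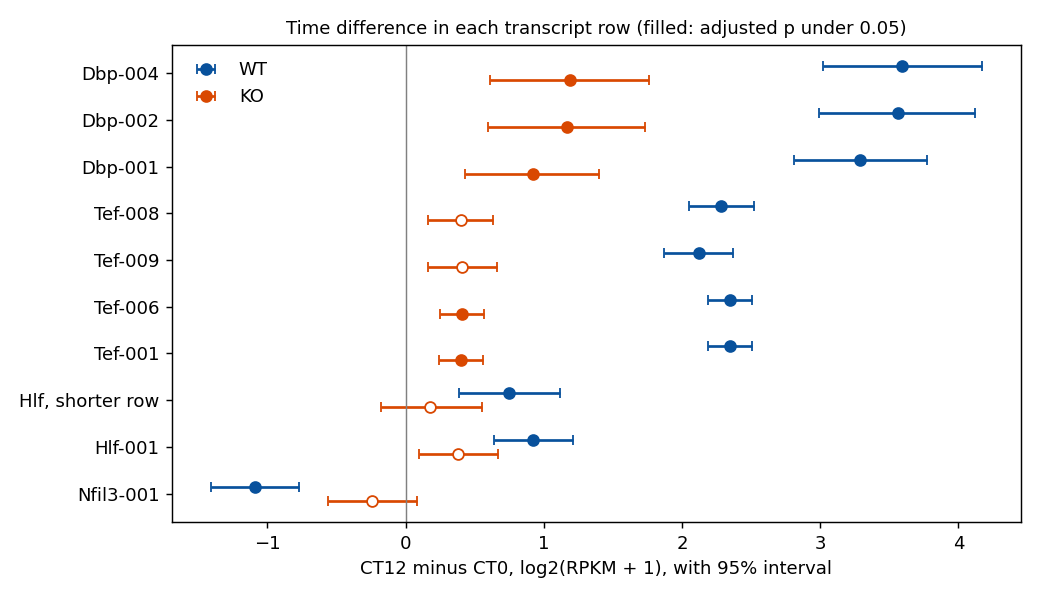
CT12 minus CT0 on the log2(RPKM + 1) scale (horizontal axis) with 95% intervals for each of the 10 transcript rows, in WT and KO, filled where the adjusted p was under 0.05. WT points lie farther from 0 than KO points in every row, and rows of a gene share reads.

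The balance of activator and repressor mRNA was described as the summed RPKM of Dbp, Tef and Hlf divided by that of Nfil3, with no test. It was 1.14, 1.11 and 0.844 in WT at CT0 and 12.1, 19.4 and 12.2 in WT at CT12. In KO it was 3.07, 2.67 and 3.28 at CT0 and 3.78, 7.07 and 5.36 at CT12. The 6 KO livers thus lay between the 2 WT groups. From the longest row of each gene the ratios were lower, 0.59 to 0.716, 8.06 to 12.6, 1.94 to 2.34 and 2.73 to 4.6 in WT at CT0, WT at CT12, KO at CT0 and KO at CT12, in the same order of groups.

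Tef made up most of the activator sum in every liver, from 52.4% to 81.1%. Dbp made up 5.5% to 9.8% in WT at CT0 and 24.7% to 38.9% in WT at CT12, and 6.3% to 8.7% and 11.2% to 21.4% in KO at the same times. Hlf made up 20.8% to 26.5% of the sum in WT at CT0 and 6.5% to 8.7% in WT at CT12, although its own level was higher there.

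**Figure D4:**
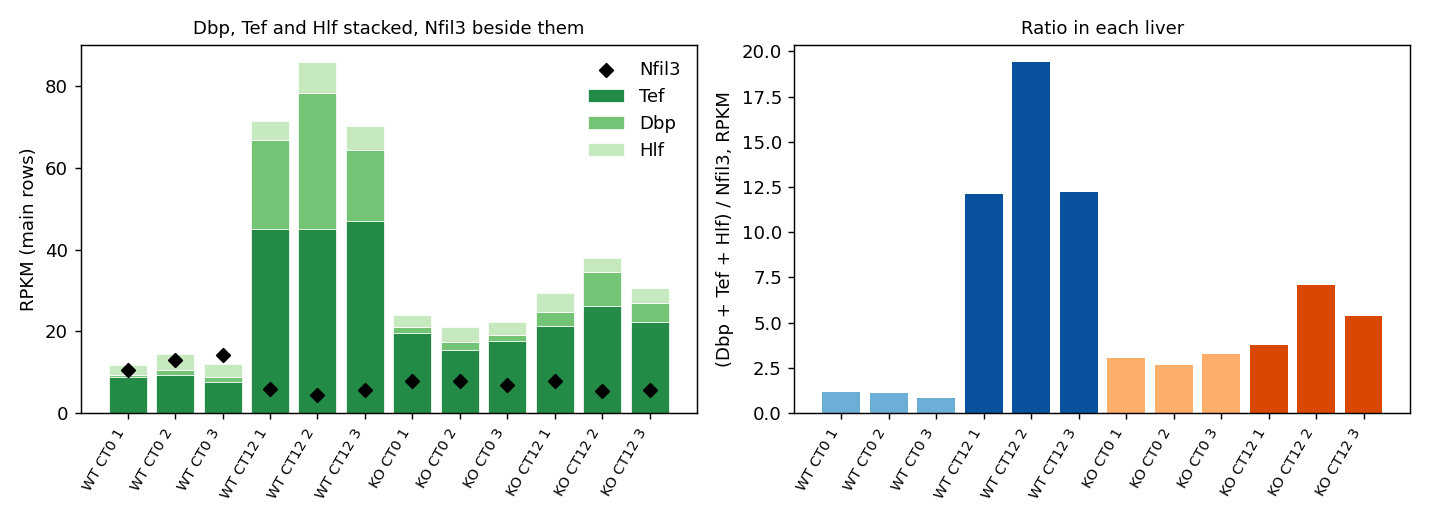
Left, RPKM of Tef, Dbp and Hlf stacked for each of the 12 livers with Nfil3 as a diamond. Right, the summed RPKM of the 3 activators divided by that of Nfil3, which lies between 0.844 and 1.14 in WT at CT0 and between 12.1 and 19.4 in WT at CT12.

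The genes that act on the members' own elements were read from a list of 11 E-box regulators and 5 ROR element regulators. Of the E-box regulators, 5 rose and 3 fell over time in WT, where 11.6% of all genes were called, and 1 rose and 1 fell in KO, where 2.43% were. The interaction passed as negative for 4 and as positive for 3, beside 1.49% of all genes. Gm129, a repressor of CLOCK and BMAL1, had an interaction of -3.11 (adjusted p = 0.0053), Arntl 2.50 (adjusted p = 7.2e-05), Per3 -2.19 (adjusted p = 0.00073) and Per2 -1.87 (adjusted p = 0.0037). Per2 and Per3 are period genes of the clock's repressor arm. For the ROR element, 4 of the 5 receptors were tested. In KO 1 was higher and 2 were lower at CT0 (1.86% of all genes), and 1 was higher and 1 lower at CT12 (10.5%). Nr1d1 and Nr1d2, the REV-ERB repressors, were lower in KO at CT0, by -1.52 (adjusted p = 0.033) and -0.96 (adjusted p = 0.047). Nr1d1 averaged 3.553 ± 2.61 RPKM in WT and 0.4608 ± 0.296 in KO at CT0, and Nr1d2 4.542 ± 1.99 and 1.741 ± 0.266 (SD, n = 3). Both calls lay near the threshold and were not followed through the alternative fits. At CT12 Nr1d2 was lower by -1.95 (adjusted p = 0.00013), while Nr1d1 did not pass (-0.46, adjusted p = 0.41). Nfil3 was lower in KO at CT0 and did not pass at CT12, as given above.

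Genes that textbook work ties to D boxes were read from a list of 24, of which 23 were tested. Over time in WT 12 rose and 1 fell (11.6% of all genes were called), with a list median of 0.72 beside -0.07 for all genes. In KO 2 rose and none fell (2.43% of all genes), with medians of 0.03 and 0. At CT12 11 were lower and 3 higher in KO (10.5% of all genes, medians -0.75 and 0.08), and at CT0 4 were lower and 4 higher (1.86%, medians 0.28 and 0.01). The interaction passed for 7, all negative (1.49%, medians -0.84 and 0.07). Per and Cry genes of this list are also among the E-box regulators, and the list was chosen with results of these data known.

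The largest passing interactions of that list were those of Gm129 and Per3, given above, and of Cyp2a5 and Cyp2a4. Cyp2a5, a coumarin hydroxylase, averaged 114.7 ± 26.6 RPKM in WT at CT0 and 748.5 ± 128 in WT at CT12, and 45.08 ± 11.5 and 49.04 ± 3.46 in KO (SD, n = 3). Its interaction was -2.56 (adjusted p = 0.0011). Cyp2a4, a near-identical paralog of Cyp2a5 whose reads may be shared with it, had -2.50 (adjusted p = 0.0019). Alas1, the first enzyme of haem synthesis, had a time difference in KO of 2.39 (adjusted p = 0.012) beside 3.95 in WT, and its interaction of -1.55 did not pass (adjusted p = 0.25).

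**Figure D5:**
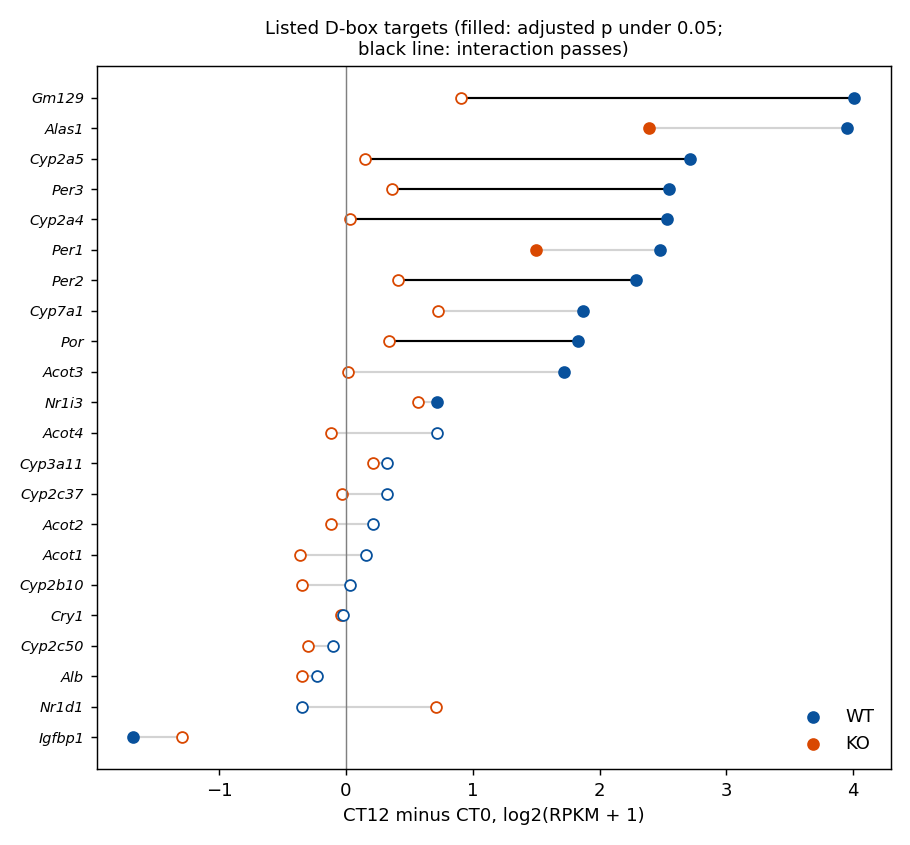
CT12 minus CT0 on the log2(RPKM + 1) scale (horizontal axis) for 22 of the 23 tested genes of the D-box list, in WT and KO, filled where the adjusted p was under 0.05. In WT 11 of the genes shown are filled right of 0 and Igfbp1 left of it, and black lines mark the 6 shown whose interaction passed.

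Of 35 other bZIP factors 29 were tested, and none passed in limma at CT0 between genotypes (1.86% of all genes were called) while 5 had an unadjusted p under 0.05. The share of all genes under that unadjusted level was not taken, so the 5 cannot be set against a background. At CT12 1 was higher and 3 lower in KO (10.5% of all genes), and 3 rose and 1 fell over time in WT (11.6%), shares near those of all genes. In KO 1 rose (2.43%), and 1 interaction passed (1.49%), that of Atf5, a stress-response factor. Atf5 averaged 46.72 ± 7.59 RPKM in WT at CT0 and 14.89 ± 2.24 in WT at CT12, and 45.51 ± 12.4 and 48.08 ± 5.92 in KO (SD, n = 3), with an interaction of 1.69 (adjusted p = 0.0071). Bach1, a haem-sensing repressor, was lower in KO at CT12 by -0.84 (adjusted p = 0.0031).

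Genes alike in pattern were ranked by Pearson's r of log2(RPKM + 1) with each member over the 12 samples. These values are descriptions, since the 12 points fall into 4 groups and share libraries. Closest to Dbp were Per3 (r = 0.969), Gm129 (0.965), Pptc7 (0.955), Tmem57 (0.949) and Usp2 (0.945), a ubiquitin protease, and most opposite were Litaf (-0.973), Amt (-0.963) and Pnp (-0.963). Closest to Tef were Per2 (0.967), Tmem57 (0.955), Per3 (0.954), Rbm25 (0.947) and Wee1 (0.945), a kinase that gates mitosis. Most opposite to Tef was Arntl itself (-0.986), then Ctnnd1 (-0.941) and Ttc5 (-0.937).

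Closest to Hlf were Zbtb20 (0.946), a zinc finger repressor, Pitpnm2 (0.894), Pptc7 (0.878), Slc16a12 (0.875) and Papd7 (0.872), with Pick1 (-0.947), Gpr137 (-0.945) and Hist1h4f (-0.943) most opposite. Closest to Nfil3 were Nfkbie (0.906), Arntl (0.897), Dmtf1 (0.892), 3010026O09Rik (0.861) and Fermt2 (0.856), with Crybg3 (-0.935), Ndfip1 (-0.907) and Tef (-0.904) most opposite. Among the members r was 0.924 for Dbp and Tef, 0.845 for Dbp and Hlf and 0.762 for Tef and Hlf. With Nfil3 it was -0.796 for Dbp, -0.904 for Tef and -0.578 for Hlf.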

How the data were processed

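Total RNA of 12 livers was sequenced after library preparation by a TruSeq RNA v2 kit. The authors deposited 1 table per liver with RPKM per Ensembl transcript. The submitters' processing notes name TopHat2, bedtools 2.19.1 and mm9; how reads over overlapping transcripts were counted is not given in the sources used here. Library totals were recovered from the steps of RPKM values under 20 reads, of which 95.5% to 96.2% were whole within 0.05 read. Lengths came from GENCODE vM1 (NCBIM37), which matched 95.5% of rows.

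Per gene symbol the row with the highest mean was kept, genes averaging below 1 RPKM in all 4 groups were left out, and log2(RPKM + 1) of 10799 genes was fitted in limma 3.58.1 (R 4.3.3) on 4 group means over 12 samples (trend, two-sided, Benjamini-Hochberg over all genes, threshold 0.05). Every adjusted p above is from limma. The fit was tested on simulated data. Each p-value sets a difference between groups against the spread of livers within groups. That spread was pooled over the 4 groups and drawn toward the trend over all genes. The members, gene lists and marker lists were chosen with earlier results of these data known. Named beside the members were Arntl, the 5 genes most alike and 3 most opposite, and, per list, up to 4 passing genes with the largest interaction. Igfbp1, Bach1, Alas1, Nr1d1, Nr1d2, Gm17597 and Sphk2 where named were added for context after their values were seen. Some listed genes are counted but not reported here by name. Motifs were searched in RefSeq promoters (GRCm38.p6) and NCBIM37. Alternatives were another pseudocount, no filter, quantile normalization, all or summed rows, a replicate block, each library left out and, chosen after seeing the data, the longest row. Replicate numbers gave no sign of pairing over all genes: same-numbered livers deviated from their group means with a mean r of 0.008. This mean does not show whether single genes were paired. For Dbp the second liver was the highest in each group, and the replicate block lowered its SE from 0.27 to 0.19.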

Additional observations from a re-analysis of the deposited data

Results flagged for a closer look

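The difference between CT12 and CT0 was not the same in the 2 genotypes for Dbp and for Tef, by the interaction term of the limma fit. For Dbp the interaction was -2.41 (adjusted p = 0.0078), with time differences of 3.59 in WT and 1.19 in KO, and all 3 KO livers at CT12 lay above the 3 at CT0. For Tef it was -1.89 (adjusted p = 0.00013), with time differences of 2.28 in WT and 0.40 in KO. In groups of 3 no single liver was tested as standing apart. The wide spread of Dbp at CT12 came with the second liver of each genotype, at 33.4 RPKM in WT and 8.11 RPKM in KO.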

How the results depend on the processing

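The 4 genes gave 20 results, each under 19 alternatives. Between genotypes at CT12 and over time in WT, Dbp and Tef passed throughout, as did Tef at CT0, both time differences of Nfil3 kept their side, and the Tef interaction stayed between -1.98 and -1.81. Without a filter on low values the Dbp interaction of -2.41 missed the threshold (adjusted p = 0.072), as did the Hlf time difference in WT of 0.75 (adjusted p = 0.062), the Dbp time difference in KO of 1.19 (adjusted p = 0.15) and the Nfil3 difference at CT0 of -0.66 (adjusted p = 0.16). The latter also missed it with a pseudocount of 0.1 (-0.72, adjusted p = 0.054), with summed rows (-0.66, adjusted p = 0.053) and with a replicate block (-0.66, adjusted p = 0.071). The block changed no other call of the 4 genes. The Hlf difference at CT12 passed under quantile normalization (-0.59, adjusted p = 0.048), and the Tef time difference in KO passed with summed rows (0.42, adjusted p = 0.032) and in the longest row (0.40, adjusted p = 0.019). The cause was not tested.

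Leaving out each library in turn gave -0.78 to -0.57 for Nfil3 at CT0 (adjusted p 0.032 to 0.17), missing in 9 of 12 fits: without WT CT0 replicate 2 or 3, WT CT12 replicate 1 or 3, any KO CT0 replicate, or KO CT12 replicate 2 or 3. Dbp over time in KO ranged from 0.89 to 1.43 and missed in 8 fits: without WT CT0 replicate 2 or 3, WT CT12 replicate 1, any KO CT0 replicate, or KO CT12 replicate 2 or 3. Hlf over time in WT ranged from 0.61 to 0.91 and missed without WT CT0 replicate 1 (0.63) and without WT CT12 replicate 3 (0.74). Hlf at CT12 ranged from -0.66 to -0.36 and passed without WT CT12 replicate 1. Hlf at CT0 ranged from -0.05 to 0.18 and turned negative without WT CT0 replicate 1 (-0.05) and without KO CT0 replicate 2 (-0.02). Genes called at CT0 numbered 201, and 76 to 208 with 1 library left out, 61 unfiltered and 457 over all rows. Counts over all rows are of 26512 transcript rows and unfiltered counts of 22322 gene symbols, against 10799 genes in the main fit. The shares called at CT0 were 1.72% of rows and 1.86% of genes. At CT12 genes called numbered 1130, with 728 to 1279 and 2807 over all rows. Over time in WT they numbered 1252, with 660 to 1394, 749 unfiltered and 3298 over all rows. Over time in KO they numbered 262, with 65 to 260, 61 and 741. For the interaction they numbered 161, with 87 to 146, 64 and 426. The low reads of Dbp at CT0 (10 to 21 in the main row) and of Hlf (22 to 68) limit the precision of their values.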

Other observations

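Within the D-box list some genes differed between genotypes at both times. Cry1, a repressor of CLOCK and BMAL1, averaged 4.849 ± 0.684 and 4.733 ± 0.284 RPKM in WT at CT0 and CT12 and 17.09 ± 0.554 and 16.57 ± 0.96 in KO (SD, n = 3), with differences of 1.64 at CT0 and 1.62 at CT12 (adjusted p = 5.1e-06 and 2.1e-06, limma). Cyp2b10, a cytochrome P450 induced through the receptor CAR, averaged 2.014 ± 1.71 and 2.094 ± 1.64 RPKM in WT and 16.1 ± 6.95 and 12.89 ± 6.93 in KO, with a difference of 2.57 at CT0 (adjusted p = 0.021) that also passed at CT12 (adjusted p = 0.013). Nr1i3, which encodes CAR, passed at 1 time only: it was lower in KO at CT12 by -0.84 (adjusted p = 0.022), while its difference of -0.69 at CT0 did not pass (adjusted p = 0.13). Alb, albumin, was lower in KO by -0.93 (adjusted p = 0.0045) and -1.05 (adjusted p = 3e-04), in libraries whose summed hepatocyte markers, Alb among them, were lower in KO. These genes were named after their values were seen.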
